A study of Mus musculus with 48 samples.

Results

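Fat cells secrete hormones and other proteins that act on the brain, liver, muscle and vessels, and 10 of their genes are described here: the hormones Adipoq, Lep and Retn, the complement protease Cfd, the carrier Rbp4, the angiotensin precursor Agt, the NAD enzyme Nampt, the Wnt inhibitor Sfrp5, the growth factor Nrg4 and the vessel peptide Apln. They were chosen by symbol, not by a measured value, from the 55471 genes counted in each library, and all 10 passed the filter on low counts in every comparison. RNA was sequenced from 48 mouse libraries. Of these, 30 came from whole epididymal white adipose tissue (eWAT, the fat pad beside the testis) and 18 from eWAT cells labelled as macrophages positive for F4/80, CD11b and CD64. The eWAT groups were wild type on control diet (7 libraries), adipose-specific Txnip knockout on control diet (7), wild type on ketogenic diet (8) and knockout on ketogenic diet (8). The macrophage-labelled groups, in the same order, held 6, 6, 3 and 3 libraries. The labels give no age, strain, Cre driver or diet composition, and do not say that each library came from a different animal, so p-values measure the spread between these libraries. Each diet within a tissue has its own library set in the titles, and its effect cannot be told apart from that of the set.

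Adiponectin circulates as disulfide-linked multimers and raises insulin sensitivity through AdipoR1 and AdipoR2. Leptin signals fat stores to the hypothalamus and rises with fat mass. Adipsin, the product of Cfd, is factor D, the protease that cleaves factor B to start the alternative complement pathway, and its mRNA is known to be low in several forms of mouse obesity. The ketogenic diet, poor in carbohydrate and rich in fat, changes the insulin and fatty acid supply under which these cells work.

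Total gene counts ran from 17417852 to 59847259 per library, and were lowest in the wild-type ketogenic eWAT libraries (17417852 to 25122305). Txnip, the gene named as deleted, went against its label in eWAT: it stood at 1656 ± 180.0 CPM (read counts scaled to a common library size with TMM factors, mean ± SD) in wild type and 2669 ± 293 CPM in the knockout label on control diet (log2 fold change 0.69 ± 0.09 SE, edgeR adjusted p = 0.000852), and at 1841 ± 294 and 2346 ± 247 CPM on ketogenic diet (0.35 ± 0.09, adjusted p = 0.0441). Every genotype comparison below is therefore between libraries labelled knockout and libraries labelled wild type. The predicted gene Gm11868, chosen because it separates the labels in these data, was at most 1.35 CPM in the wild-type and at least 3.48 CPM in the knockout-labelled libraries of the other groups. In 4 of the 6 macrophage-labelled ketogenic libraries (wild-type replicates 1 and 2, knockout-label replicates 2 and 3) it lay on the side of the other label. The macrophage label also went against its markers. Of 10 macrophage markers 9 had a lower mean in the macrophage-labelled than in the whole eWAT libraries: Adgre1, which encodes F4/80, averaged 27.8 against 71.6 CPM, Itgam (CD11b) 4.80 against 21.6 and Fcgr1 (CD64) 1.58 against 5.06. All 8 endothelial markers were higher there, Pecam1 at 1787 against 276 CPM. None of the markers of either list was at 0 in all libraries of a group.

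Per transcript length, Cfd and Adipoq led the 10 genes in every eWAT group. In wild-type eWAT on control diet Cfd stood at 19141 ± 5437 TPM (a transcript count scaled by gene length and library), ahead of Adipoq at 9398 ± 1140, Retn at 2352 ± 256, Lep at 1653 ± 579.5, Rbp4 at 995 ± 182, Agt at 556 ± 104, Sfrp5 at 203 ± 93.6, Nampt at 93.6 ± 7.63, Nrg4 at 55.5 ± 8.42 and Apln at 18.5 ± 5.92 TPM (n = 7). In that group the ranges of 4 neighbouring pairs overlapped: Cfd and Adipoq, Retn and Lep, Lep and Rbp4, and Sfrp5 and Nampt. Within a library, Cfd exceeded Adipoq per length in 7 of 7 wild-type and 3 of 7 knockout-labelled control-diet libraries. On ketogenic diet Adipoq was ahead in all 16. Sfrp5 and Agt also changed places, Agt being ahead in all 14 control-diet libraries and Sfrp5 in 15 of 16 ketogenic ones. Together the 10 genes took 12267 ± 1300.0 CPM in wild type and 9989 ± 823 CPM in the knockout label on control diet, and 8453 ± 449 and 7679 ± 579 CPM on ketogenic diet. The coefficient of variation between libraries of a group was 5.57 to 15.0% for Adipoq, 8.65 to 12.5% for Retn and 6.59 to 27.7% for Nampt. Sfrp5 varied by 48.01 and 61.2% on control diet but by 22.3 and 19.4% on ketogenic diet.

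**Figure D1:**
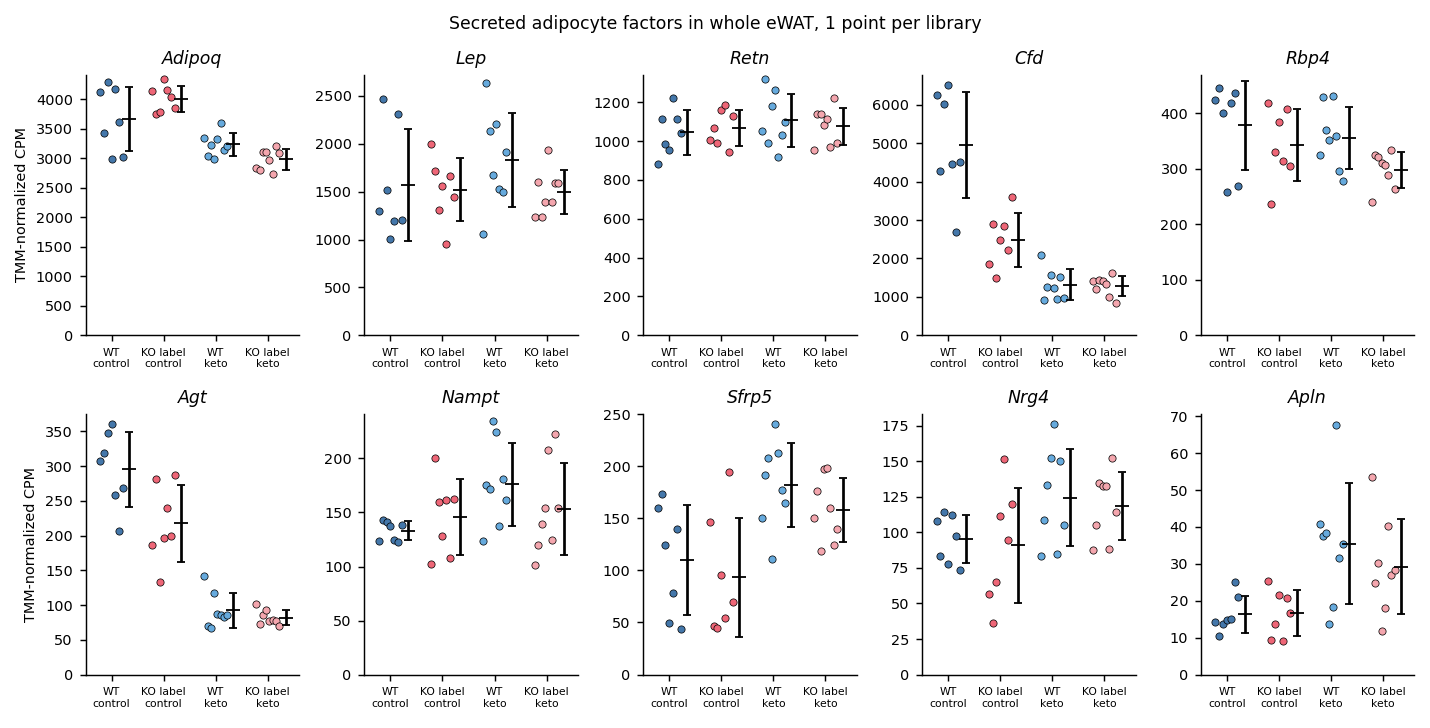
TMM-normalized CPM of the 10 genes in the 30 whole eWAT libraries, 1 panel per gene with its own axis from 0, for wild type (WT) and the knockout (KO) label on control and ketogenic diet; points are libraries, and the mark beside each group is the mean ± SD (n = 7, 7, 8 and 8). Cfd and Agt lie lower in both ketogenic groups, with means of 1314 and 1284 CPM for Cfd against 4959 and 2486 on control diet.

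In wild-type eWAT 6 of the 10 genes differed between diets: Cfd and Agt fell, and Apln, Sfrp5, Nampt and Nrg4 rose. Over all 15569 genes tested, 26.8% were called higher and 27% lower, so calls were common in this comparison, and 4 of 10 higher and 2 of 10 lower are to be read against those shares. The median log2 fold change of the 10 genes was 0.20, against -0.01 over all genes. The knockout label had 5 of the 10 that differed: Cfd, Agt and Adipoq fell, and Apln and Sfrp5 rose, where 19.8% of 16483 genes were called higher and 19.7% lower. The median of the 10 was -0.01 there, and that of all genes -0.02. Calls are edgeR quasi-likelihood tests at an adjusted p under 0.05, adjusted over all genes tested. In bulk tissue, fewer cells of a type and less RNA per cell cannot be told apart. The summed level of 12 adipocyte markers, none of the 10 genes among them, ran from 39243 to 48125 CPM in wild-type control and from 51328 to 60488 CPM in wild-type ketogenic libraries, and from 37511 to 45332 and 41418 to 54472 CPM in the knockout label. That sum is led by Lpl, Fabp4 and Cd36, and the markers did not move as a set. In wild type 5 of the 12 were called higher and 3 lower, with a median log2 fold change of 0.05. In the knockout label 2 were higher and 1 lower, with a median of 0.18. The 10 macrophage markers summed to 737 to 995 CPM in wild-type control and 429 to 579 CPM in wild-type ketogenic libraries, and to 661 to 880 and 526.1 to 799 CPM in the knockout label, where the ranges overlapped. In wild type 4 of 8 mesothelial markers were lower on ketogenic diet, and 4 of 8 endothelial markers higher and 1 lower. All 6 B cell markers were lower on ketogenic diet in wild type and 5 of 6 in the knockout label. The part of these markers in the results was not tested.

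**Figure D2:**
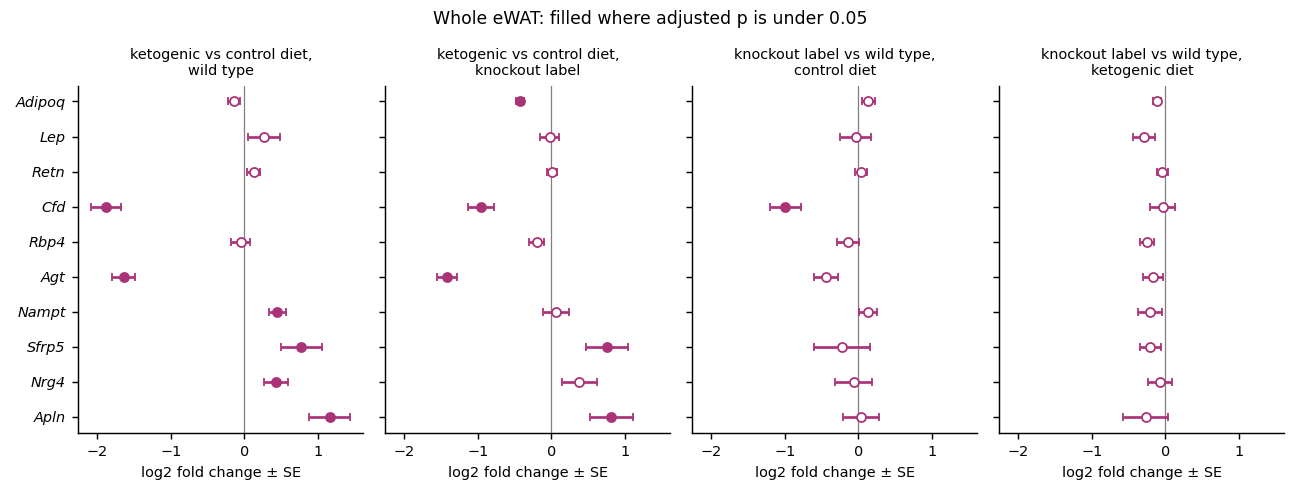
Fitted log2 fold changes of the 10 genes in the 4 whole eWAT comparisons, 1 panel each; points are estimates, bars their SE, and filled points have an adjusted p under 0.05 over all genes. Cfd and Agt lie furthest below 0 in both diet comparisons (-1.88 and -1.64 in wild type), and Cfd carries the only filled point of the genotype comparisons.

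Adipsin had the largest fall of the 10 genes in wild-type eWAT. Cfd (ENSMUSG00000061780.6, GRCm38 chromosome 10, 79890853 to 79892655, plus strand) ran from 2681 through a median of 4502 to 6510 CPM in the 7 wild-type control libraries and from 923 through 1245 to 2096 CPM in the 8 wild-type ketogenic libraries. All 8 ketogenic libraries lay below all 7 control libraries. The log2 fold change was -1.88 ± 0.20 (adjusted p = 1.52e-06). Among knockout-labelled libraries Cfd ran from 1492 through 2475 to 3600.1 CPM on control diet and from 842 through 1372 to 1627 CPM on ketogenic diet. Of the 8 ketogenic libraries 7 lay below all 7 control libraries, and the change was -0.96 ± 0.17 (adjusted p = 0.000381).

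In the main fits, which hold no replicate block, Cfd was also the only one of the 10 genes called between the genotype labels in eWAT. With the replicate number as a block Rbp4 was called on ketogenic diet (given further on). On control diet Cfd fell from 4959 ± 1374 CPM in wild type to 2486 ± 709 CPM in the knockout label (-0.99 ± 0.21, adjusted p = 0.00725, n = 7 and 7), with 4 of 7 knockout-labelled libraries below all wild-type libraries and the others within their range. Of the 16746 genes tested in this comparison 4.41% were called higher and 11.6% lower. On ketogenic diet the means were 1314 ± 402 and 1284 ± 258 CPM (-0.03 ± 0.17, adjusted p = 0.945, n = 8 and 8). The genotype difference itself differed between diets, by 0.96 ± 0.28 on the log2 scale (adjusted p = 0.0274), where 6.96% of 17140 genes had a higher and 1.35% a lower interaction. Those are 1193 and 232 genes, and 1021 and 416 with DESeq2 size factors. Cfd has a GC content of 58.4%, and with an offset for GC content its control-diet genotype call ended (-0.59, adjusted p = 0.0783) and so did its interaction (0.55, adjusted p = 0.336), while both diet calls stayed. The interaction also ended with no filter on low counts (adjusted p = 0.0544) and without any 1 of wild-type control replicates 1, 3 or 4 or knockout-label control replicate 3 (0.0509 to 0.0563).

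Adipocyte genes outside the 10 were called on control diet too, where 4.41% of all genes were higher and 11.6% lower. Of 12 adipocyte markers 4 were lower in the knockout label and none higher. Among them were Cidec, a lipid droplet protein (-0.61 ± 0.11), Lipe, the hormone-sensitive lipase (-0.55 ± 0.12), and Adrb3, the beta-3 adrenergic receptor (-0.46 ± 0.15). Of 9 adipocyte transcription factors 5 were lower and none higher, with Cebpd (-1.03 ± 0.33), Srebf1 (-0.92 ± 0.17) and Esrra (-0.71 ± 0.13). Of the macrophage markers 3 of 10 were lower, and of the endothelial markers 4 of 8 were higher. Their part in the Cfd difference was not tested. These list calls were read from the main fit only. With the GC offset, the genes called lower over all genes went from 1939 to 795. Adiponectin was not called: Adipoq differed by 0.13 ± 0.09 (adjusted p = 0.324). Between diets the 9 transcription factors went otherwise. In wild type 4 were higher and 3 lower, where 26.8% of all genes were higher and 27% lower. In the knockout label 5 were higher and 1 lower, where 19.8% were higher and 19.7% lower. Cebpd rose on ketogenic diet by 0.91 ± 0.32 in wild type and 2.07 ± 0.18 in the knockout label, while Cfd fell in both.

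Of 6 other genes of adipsin's pathway 5 were lower on ketogenic diet in wild type and none higher, where 27% of all genes were lower and 26.8% higher. The largest falls were in Cfp, which encodes properdin and stabilizes the convertase (-0.82 ± 0.11), and Masp1, whose product MASP-3 activates pro-factor D (-0.77 ± 0.18). Cfb, the factor that adipsin cleaves, came next (-0.70 ± 0.13). Of 10 macrophage markers 8 were lower in the same comparison, and their part in these falls was not tested. Of the 6, in the knockout label, only Cfb was called (-0.52 ± 0.13, adjusted p = 0.00358), where 19.7% of all genes were lower. Masp1 was also the one gene of the 6 called between the labels on control diet (-0.71 ± 0.21, adjusted p = 0.0302), where 11.6% of all genes were lower.

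Agt (ENSMUSG00000031980.10, chromosome 8, 124556534 to 124569706, minus strand) encodes angiotensinogen, the precursor that renin and ACE turn into angiotensin II. It ran from 207 through 307 to 361 CPM in wild-type control and from 67.0 through 85.5 to 142 CPM in wild-type ketogenic libraries, without overlap. The fall was -1.64 ± 0.16 on the log2 scale (adjusted p = 4.54e-07). In the knockout label it ran from 133 through 200.0 to 287 CPM on control diet and from 69.8 through 77.7 to 101 CPM on ketogenic diet, again without overlap (-1.41 ± 0.14, adjusted p = 1.76e-06). Between the labels on control diet Agt differed by -0.44 ± 0.16 and was not called (296 ± 54.0 against 218 ± 55.1 CPM, adjusted p = 0.0755). It passed with the DESeq2 Wald test (0.0442), with all 4 eWAT groups in 1 fit (0.0474) and without wild-type replicate 6 (0.0436) or knockout-label replicate 7 (0.0433).

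Of 7 other renin-angiotensin genes tested in wild type, 3 were higher and 2 lower on ketogenic diet, where 26.8% of all genes were higher and 27% lower. Ace, the enzyme that forms angiotensin II, fell by 0.90 ± 0.06 on the log2 scale, from 144 ± 12.4 to 74.6 ± 6.57 CPM, and Ctsd, a lysosomal protease, by 0.65 ± 0.09. Mme, neprilysin, which cleaves angiotensin peptides, rose by 0.82 ± 0.12. All 3 were also called in the knockout label, in the same directions, Ace at -0.64 ± 0.13. The type 1 receptor Agtr1a fell in both labels (-0.39 ± 0.15 and -0.66 ± 0.11), at 13.3 to 20.9 CPM.

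The promoters of the members that moved together from library to library are shown, since the pairs Cfd with Agt and Nampt with Apln had the strongest positive and the strongest negative relation (given further on). Each is 300 bases of the coding strand from RefSeq (GRCm38.p6), 250 before to 50 after the annotated start, which was found for all 10 genes. Capitals mark matches, on either strand, of 6 motifs: the TATA box with the letters TATAAA, the CCAAT box with the letters its name gives, the C/EBP motif TTNNGNAA, the nuclear receptor half-site with the letters AGGTCA, the E-box with the letters CACGTG, and the GC box with the letters GGGCGG. Cfd lies at chr10:79890603-79890902, plus strand. Agt lies at chr8:124569657-124569956, minus strand. Nampt lies at chr12:32820085-32820384, plus strand. Apln lies at chrX:48034804-48035103, minus strand.
Cfd: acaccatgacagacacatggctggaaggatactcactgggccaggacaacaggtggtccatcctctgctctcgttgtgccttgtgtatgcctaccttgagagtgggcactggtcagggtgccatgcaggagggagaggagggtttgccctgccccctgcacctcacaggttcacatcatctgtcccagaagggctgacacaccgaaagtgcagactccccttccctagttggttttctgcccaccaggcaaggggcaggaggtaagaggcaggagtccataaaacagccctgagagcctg
Agt: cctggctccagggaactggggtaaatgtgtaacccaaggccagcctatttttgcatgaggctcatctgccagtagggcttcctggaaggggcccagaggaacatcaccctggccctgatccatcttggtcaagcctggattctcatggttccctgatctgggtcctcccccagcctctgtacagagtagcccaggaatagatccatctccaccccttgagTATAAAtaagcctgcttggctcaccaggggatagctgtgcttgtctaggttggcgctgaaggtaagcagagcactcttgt
Nampt: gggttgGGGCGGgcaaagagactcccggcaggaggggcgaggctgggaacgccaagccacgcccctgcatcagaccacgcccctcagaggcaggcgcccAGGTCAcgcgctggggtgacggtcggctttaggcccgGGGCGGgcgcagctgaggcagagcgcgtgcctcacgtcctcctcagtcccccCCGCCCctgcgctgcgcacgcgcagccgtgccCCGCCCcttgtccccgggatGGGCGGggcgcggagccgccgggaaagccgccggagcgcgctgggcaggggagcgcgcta
Apln: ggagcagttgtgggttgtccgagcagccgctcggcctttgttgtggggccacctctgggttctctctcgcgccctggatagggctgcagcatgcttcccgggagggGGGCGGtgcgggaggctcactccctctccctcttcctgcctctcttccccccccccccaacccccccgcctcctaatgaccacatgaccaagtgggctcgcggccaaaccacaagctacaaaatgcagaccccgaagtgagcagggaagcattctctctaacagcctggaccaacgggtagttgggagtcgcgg
Agt holds a TATA box from 30 to 25 bases before the start, as do 13.6% of 32851 promoters of this length at any position. Cfd holds no match to any of the 6 motifs. Nampt holds 5 GC boxes and 1 half-site, and Apln 1 GC box; 35.7% of promoters hold a GC box and 16.3% a half-site. The C/EBP motif, in 40.7% of promoters, is in 5 of the 11 promoters of the 10 genes (Rbp4 has 2), which are those of Lep, Nrg4, Adipoq and both of Rbp4. These matches are letters in a window and show no binding.

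Among the hormones, adiponectin fell in the knockout label, and leptin and resistin passed no test in eWAT. Adipoq (ENSMUSG00000022878.5, chromosome 16, 23146536 to 23158028, plus strand) ran from 3742 through 4035 to 4339 CPM in knockout-labelled control and from 2728 through 3036 to 3209 CPM in knockout-labelled ketogenic libraries. The ranges did not overlap, and the change was -0.43 ± 0.06 (adjusted p = 2.5e-05). In wild type it ran from 2984 through 3616 to 4298 CPM on control diet and from 2987 through 3223 to 3594 CPM on ketogenic diet. All ketogenic libraries lay within the control range, and the change was -0.14 ± 0.08 (adjusted p = 0.167). The difference between these diet effects was -0.25 ± 0.10 and was not called (adjusted p = 0.124), although the DESeq2 Wald test called it (-0.28, adjusted p = 0.0327). The wild-type change passed with all 4 groups in 1 fit (-0.18, adjusted p = 0.032) and without wild-type control replicate 4 (0.0358) or 7 (0.0473).

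Among genes that fold and release adiponectin, calls were about as common as over all genes. Gstk1 (DsbA-L), which promotes its multimers, fell in both labels, by 0.47 ± 0.07 in wild type and 0.72 ± 0.07 in the knockout label. Erp44, which retains it in the secretory pathway, rose (0.31 ± 0.04 and 0.25 ± 0.05). In wild type 3 of 7 genes of this list were higher and 1 lower, where 26.8% and 27% of all genes were called, and in the knockout label 2 and 1, where 19.8% and 19.7% were. Of 11 receptor genes of the members tested, 3 were higher and 5 lower in wild type and 0 higher and 3 lower in the knockout label. The same shares of all genes apply. In wild type Erbb3 (-0.74 ± 0.17) and Fzd5 (-0.60 ± 0.10) fell most, and Fzd5 also fell in the knockout label (-0.43 ± 0.09). The adiponectin receptor gene Adipor1 fell by 0.20 ± 0.04 in wild type and 0.21 ± 0.05 in the knockout label.

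Lep (ENSMUSG00000059201.12, chromosome 6, 29060220 to 29073877, plus strand) ran from 1000.2 through 1295 to 2466 CPM in wild-type control and from 1056 through 1796 to 2639 CPM in wild-type ketogenic libraries. The ranges overlapped over nearly their whole length, and the change was 0.27 ± 0.21 (adjusted p = 0.311). Lep averaged 1522 ± 332 CPM on control and 1498 ± 233 CPM on ketogenic diet in the knockout label (-0.02 ± 0.13, adjusted p = 0.9). Retn (ENSMUSG00000012705.16, chromosome 8, 3655770 to 3660110, plus strand), which encodes resistin, an insulin-opposing hormone of mouse adipocytes, averaged from 1045 ± 116 to 1107 ± 138 CPM across the 4 groups. Its changes were 0.12 ± 0.09 in wild type and 0.01 ± 0.07 in the knockout label (adjusted p = 0.236 and 0.942).

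Rbp4 (ENSMUSG00000024990.13, chromosome 19, 38116629 to 38125281, minus strand) encodes the retinol carrier of blood, which adipocytes add to that from liver. Its means were 378 ± 80.0 and 342 ± 64.5 CPM on control and 354 ± 55.7 and 298 ± 32.4 CPM on ketogenic diet, in wild type and the knockout label. None of its 4 comparisons was called. On ketogenic diet, with means of 354 and 298 CPM (-0.25 ± 0.09), its adjusted p was 0.134, and 2 of 8 knockout-labelled libraries lay below all wild-type ones. With the replicate number as a block it was called (-0.24, adjusted p = 0.0292). In that comparison no other of the 10 genes was called with or without the block, 2 had an unadjusted p under 0.05 (Rbp4 and Adipoq), and 1.48% of 15225 genes were called higher and 1.88% lower by edgeR. With the block 775 genes were higher and 811 lower, against 226 and 286 without it. The wild-type diet change of Rbp4, -0.05 ± 0.13, became 0.30 (adjusted p = 0.0212) with a GC offset and the block together. Among 8 other retinol genes tested in wild type 1 was higher and 4 lower on ketogenic diet, where 26.8% of all genes were higher and 27% lower. Rbp7 was at 0.92 ± 0.18 and Aldh1a3, a retinaldehyde dehydrogenase, at -0.90 ± 0.21.

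The 4 factors that rose on ketogenic diet in wild type were lower in level than the hormones. Apln (ENSMUSG00000037010.7, chromosome X, 48025146 to 48034853, minus strand) encodes apelin, a peptide that widens vessels and acts through Aplnr. It ran from 10.5 through 14.6 to 25.0 CPM in wild-type control and from 13.7 through 36.5 to 67.7 CPM in wild-type ketogenic libraries. Of the 8 ketogenic libraries 6 lay above all control libraries and 2 within their range (1.16 ± 0.28, adjusted p = 0.00263). In the knockout label it ran from 9.16 through 16.8 to 25.3 CPM on control and from 11.7 through 27.6 to 53.6 CPM on ketogenic diet, 5 of 8 libraries lying above (0.81 ± 0.29, adjusted p = 0.0339). That call ended with limma-voom (0.0957), without the low-count filter (0.112), and without any 1 of control replicates 2, 3, 5 and 7 or ketogenic replicates 1 and 6 (0.0527 to 0.0759).

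Sfrp5 (ENSMUSG00000018822.7, chromosome 19, 42197971 to 42202252, minus strand) encodes a secreted frizzled-related protein that binds Wnt5a. It ran from 43.4 through 125 to 173 CPM in wild-type control and from 111 through 184 to 240.1 CPM in wild-type ketogenic libraries. Of the ketogenic libraries 5 of 8 lay above all control ones, and the rise was 0.77 ± 0.28 (adjusted p = 0.028). In the knockout label it ran from 45.1 through 70.1 to 194 CPM and from 118 through 155 to 198 CPM (0.76 ± 0.29, adjusted p = 0.0447), and the ketogenic libraries were mostly within the wide control range. Both calls ended without the low-count filter (0.0983 and 0.133). The wild-type call also ended without control replicate 4 or 5 or ketogenic replicate 5 (0.0527 to 0.0585), and the knockout-label call without any 1 of control replicates 2, 3, 4, 5 and 7 or ketogenic replicates 1, 2, 4, 5, 6 and 8 (0.0529 to 0.0903).

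Nampt (ENSMUSG00000020572.8, chromosome 12, 32819545 to 32853349, plus strand) encodes the rate-limiting enzyme of NAD salvage, which is also found outside cells. It ran from 123 through 137 to 143 CPM in wild-type control and from 123 through 174 to 235 CPM in wild-type ketogenic libraries. Of the latter 6 of 8 lay above all control libraries, which were close together (0.45 ± 0.11, adjusted p = 0.00356). In the knockout label the change was 0.06 ± 0.17 (146 ± 35.0 and 153 ± 42.3 CPM, adjusted p = 0.796). The difference between these diet effects was -0.34 ± 0.22 and was not called (adjusted p = 0.366). Nampt has the lowest GC content of the 10 genes, 40.3%, and with a GC offset its wild-type call ended (0.14, adjusted p = 0.341). Of 12 other genes of NAD synthesis and use 1 was higher and 4 lower in wild type, where 26.8% of all genes were higher and 27% lower. Nmnat3 (-0.69 ± 0.17), Naprt (-0.65 ± 0.08) and the deacylase Sirt3 (-0.46 ± 0.07) were among the lower.

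Nrg4 (ENSMUSG00000032311.17, chromosome 9, 55220222 to 55326844, minus strand) encodes a neuregulin that signals through ErbB4. It overlaps Fbxo22 and the pseudogene Gm15625 on the opposite strand, so that reads counted without strand cannot be assigned to it alone. It averaged 95.2 ± 16.96 CPM in wild-type control and 124 ± 34.1 CPM in wild-type ketogenic libraries, 4 of 8 lying above all control ones (0.43 ± 0.16, adjusted p = 0.0364). In the knockout label it averaged 90.9 ± 40.5 and 119 ± 23.7 CPM (0.38 ± 0.24, adjusted p = 0.225). The wild-type call was the least stable of the 6: it ended with limma-voom (0.0612), without the low-count filter (0.137), with the replicate block (0.0646), with a GC offset (0.22, 0.293), in the unstranded counts (0.056), with all 4 groups in 1 fit (0.14), and without any 1 of control replicates 2, 4, 6 and 7 or ketogenic replicates 3, 4, 5 and 7 (0.0517 to 0.0877).

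Of 30 other secreted factors of fat tested, 12 were lower and 4 higher on ketogenic diet in wild type, where 27% of all genes were lower and 26.8% higher. Gpx3, the glutathione peroxidase of plasma, fell from 1202 ± 255 to 325 ± 80.2 CPM (-1.85 ± 0.16). Lcn2, lipocalin 2, also fell (-1.23 ± 0.46). The knockout label had 6 higher and 5 lower, where 19.8% of all genes were higher and 19.7% lower, again with Gpx3 among the lower (-1.40 ± 0.15). The diet comparisons of both labels share no libraries. On control diet the knockout label had 4 of 30 lower and none higher, where 11.6% of all genes were lower and 4.41% higher. The lower share is thus near that of all genes. Among the 4 were Apoe, apolipoprotein E (-0.95 ± 0.19), C1qtnf12, a relative of adiponectin (-0.73 ± 0.11), and Vegfb (-0.57 ± 0.13). On ketogenic diet none of the 30 was called between the labels by edgeR, where 1.48% of all genes were higher and 1.88% lower.

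Within groups, some of the 10 genes varied together from library to library. Each library's log2 CPM (pseudocount 0.5) was taken relative to its group mean, over the 30 eWAT libraries, and all 45 pairs were compared with 100000 permutations of libraries within groups, two-sided and adjusted over the 45 pairs. The permutations treat the 30 libraries as independent, but same-numbered ketogenic libraries of both labels deviated together (8 of 8 pairs), so these p-values are too small. The pairs past an adjusted p of 0.05 for both coefficients numbered 4. Cfd and Agt had the strongest relation (Pearson's r = 0.81, permutation p = 1e-05, the smallest these permutations give, adjusted p = 0.00045; Spearman's rho = 0.75, p = 3e-05, adjusted p = 0.0009). It was 0.75 without the 2 libraries farthest in Cfd, 0.91 within the 14 control-diet and 0.69 within the 16 ketogenic libraries. Nampt and Apln went opposite ways (r = -0.72, permutation p = 0.0001, adjusted p = 0.0022; rho = -0.74, p = 4e-05, adjusted p = 0.0009), with -0.75 without the 2 farthest, -0.76 on control and -0.70 on ketogenic diet.

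Rbp4 and Sfrp5 had r = 0.72 (permutation p = 0.00017, adjusted p = 0.0025; rho = 0.71, p = 0.00016, adjusted p = 0.0024) and 0.65 without the 2 farthest. It was 0.86 on control diet but 0.28 on ketogenic diet, so it was weak within the ketogenic libraries. Lep and Sfrp5 had r = 0.57 (permutation p = 0.0039, adjusted p = 0.044; rho = 0.59, p = 0.0018, adjusted p = 0.02), 0.54 without the 2 farthest, 0.66 on control and 0.42 on ketogenic diet. Lep and Adipoq did not vary together (r = 0.00, rho = -0.12, permutation p = 0.99 and 0.59). All values of a library share its depth and its RNA sample.

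**Figure D3:**
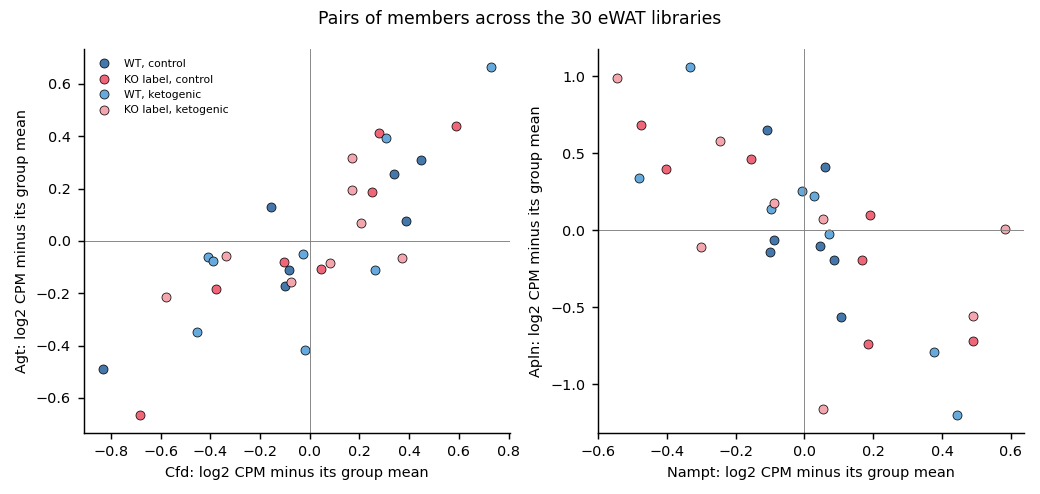
Log2 CPM minus the group mean for Cfd against Agt (left) and Nampt against Apln (right), 1 point per whole eWAT library (n = 30), coloured by genotype label and diet. Points of all 4 groups follow a rising line for Cfd and Agt (r = 0.81) and a falling one for Nampt and Apln (r = -0.72).

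The genes most like 4 of the 10 in the same measure were sought outside the 10 genes, among those of at least 5 CPM, as a description. Those of Cfd, after its fellow member Agt (0.81), were Gpx3 (r = 0.80), Podn (0.78) and Crtc2 (0.78). Those of Lep were Paqr7 (0.87), Lrrc3 (0.85) and Tfg (0.84), and those of Retn were Atp5j2 (0.85), Cs (0.83) and Suclg1 (0.83). Adipoq had Ankrd29 (0.74), Ggh (0.74) and Tmem43 (0.73), the last at 0.91 on control diet but 0.18 on ketogenic diet. Gpx3 fell between diets in both labels, and between the labels on control diet it differed by -0.04 ± 0.18 (adjusted p = 0.902).

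In the macrophage-labelled libraries most of the 10 genes were at a small part of their whole-tissue level. These libraries were made with another kit, from 1 to 5 ng of RNA in place of 500 ng, and counted without strand, so both kinds are set side by side with no test. Adipoq averaged 21.98 CPM against 3449 in whole eWAT (0.637%), Lep 22.7 against 1609 (1.41%), Retn 16.4 against 1075 (1.53%) and Cfd 58.9 against 2430.0 (2.42%). Plin1, the droplet coat of adipocytes, was at 10.7 against 1713 CPM (0.625%), while the adipocyte marker Fabp4 was at 8520.1 against 13169 CPM. Agt, at 42.1 against 166 CPM (25.3%), and Nampt, at 67.5 against 153 CPM (44.1%), were closer to the whole-tissue level. Apln was the only member with a higher mean there, 202 against 25.0 CPM, 8.09 times as high, and its lowest macrophage-labelled library (81.1 CPM) lay above the highest eWAT library (67.7 CPM). Its receptor Aplnr was at 425 to 640 CPM in the macrophage-labelled group means and 32.2 to 42.7 CPM in those of eWAT. What cells these levels come from was not tested.

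**Figure D4:**
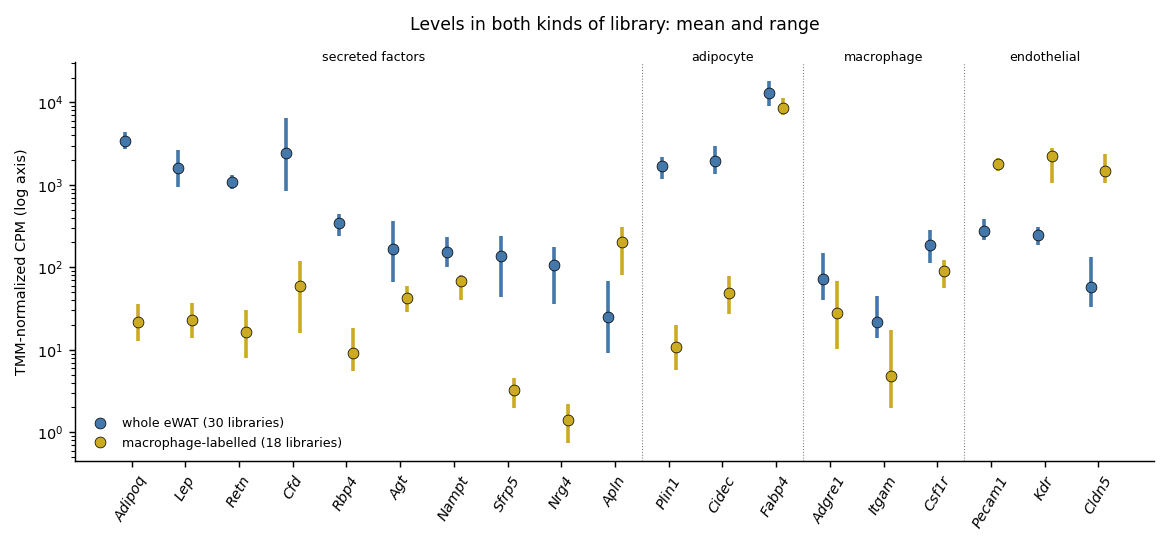
TMM-normalized CPM (log axis) of the 10 genes and of 3 markers each of adipocytes, macrophages and endothelium in 30 whole eWAT and 18 macrophage-labelled libraries; points are means over libraries and lines run from the lowest to the highest library. Apln and the endothelial markers are higher in the macrophage-labelled libraries, and the other members and the macrophage markers shown are lower.

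On control diet, macrophage-labelled libraries of the knockout label held less Cfd than those of wild type. The 6 wild-type libraries ran from 72.5 through a median of 91.0 to 119 CPM and the 6 knockout-labelled ones from 16.0 through 28.2 to 54.5 CPM, without overlap (-1.51 ± 0.24, adjusted p = 0.0477). Calls were rare in this comparison: 0.0293% of 17067 genes were higher and 0.0527% lower, which are 5 and 9 genes. The call is weak, since it ended in 11 of 12 fits that left out 1 library (adjusted p from 0.0635 to 0.131; it held without knockout-label replicate 3), without the low-count filter (0.183) and with a GC offset (0.0618). The fold change itself stayed near its size, at -1.50 without the filter, -1.43 with the GC offset and -1.73 to -1.37 with 1 library left out. Adipoq (27.0 ± 4.95 against 16.8 ± 3.58 CPM, -0.68 ± 0.15, adjusted p = 0.171), Lep (-0.48 ± 0.12, 0.262), Retn (-0.83 ± 0.21, 0.303) and Rbp4 (-0.87 ± 0.20, 0.23) were not called, with 5 of 6 knockout-labelled libraries below all wild-type ones for each. The DESeq2 Wald test called all 4 (adjusted p from 0.0043 to 0.026). Of 12 adipocyte markers 2 were called lower and none higher, Cidec from 59.7 ± 10.8 to 31.4 ± 2.67 CPM (-0.93 ± 0.11) and Adrb3 from 7.45 ± 1.49 to 3.47 ± 1.00 CPM (-1.10 ± 0.18). The median log2 fold change of the 12 markers was -0.30, against -0.02 over all genes. Their summed level, led by Cd36 and Fabp4, ran from 16393 to 20527 CPM in wild type and from 16910 to 20258 CPM in the knockout label. Cd36 and Fabp4 averaged 9257 and 8520 CPM over the macrophage-labelled libraries and Plin1 10.7 CPM, so the sum says little about the other markers. The part of these markers in the Cfd difference was not tested. Apln (173 ± 79.4 against 216 ± 63.5 CPM, adjusted p = 0.648), Nampt and Agt (adjusted p = 0.578 and 0.638) showed overlapping ranges.

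On ketogenic diet, with 3 libraries per label of which 4 of 6 are doubtful, none of the 10 genes was called in the macrophage-labelled libraries, and no gene of 17067 was called by edgeR (0% higher and 0% lower). At an unadjusted p under 0.05 edgeR had 520 genes, 1 of them a member (Adipoq, 0.45 ± 0.16, adjusted p = 1). The DESeq2 Wald test called 0 higher and 14 lower genes, and limma-voom none. Cfd stood at 45.5, 63.5 and 75.3 CPM in the knockout label and at 30.2, 48.7 and 49.3 CPM in wild type. Adipoq stood at 20.6, 25.4 and 30.8 CPM in the knockout label and at 15.0, 20.1 and 20.9 CPM in wild type. The groups overlapped for both. Nrg4, at low counts, was at 1.82 to 2.20 CPM in the knockout label and 1.46 to 1.61 CPM in wild type (0.43 ± 0.20, adjusted p = 1). These do not overlap, but with 3 libraries per label such a separation arises readily by chance. The share of all genes that separate in this way was not counted. In the 2 libraries whose Gm11868 level goes with their label, Cfd was at 75.3 CPM in the knockout label and 49.3 CPM in wild type, 1 library each, with no test.

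**Figure D5:**
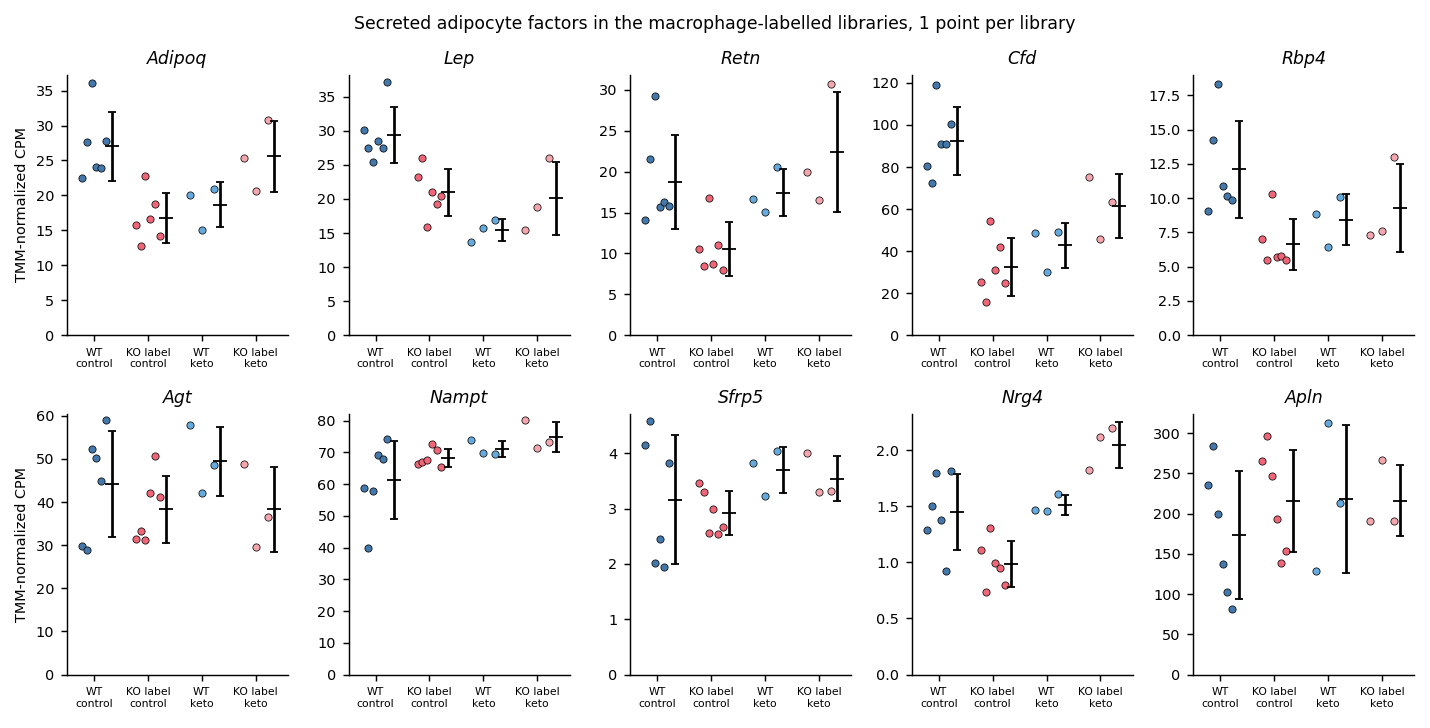
TMM-normalized CPM of the 10 genes in the 18 macrophage-labelled libraries, 1 panel per gene with its own axis from 0; points are libraries and the mark beside each group is the mean ± SD (n = 6, 6, 3 and 3). Cfd separates the labels on control diet (92.3 ± 16.2 against 32.3 ± 13.8 CPM) and overlaps on ketogenic diet; 4 of the 6 ketogenic libraries have a doubtful label.

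Between diets, with both genotype labels together (6 ketogenic and 12 control macrophage-labelled libraries), Lep fell and Nrg4 rose. Lep ran from 13.8 to 26.0 CPM in ketogenic and from 15.8 to 37.1 CPM in control libraries (17.8 ± 4.36 against 25.2 ± 5.68, -0.50 ± 0.15, adjusted p = 0.0186). Nrg4 averaged 1.78 ± 0.325 against 1.22 ± 0.361 CPM (0.55 ± 0.18, adjusted p = 0.0286), and was counted without strand. The ranges of both overlapped, and 14.3% of 17573 genes were called higher and 16.1% lower. Both calls ended without the 4 libraries of doubtful label (adjusted p = 0.136 and 0.365) and with the replicate block (0.0603 and 0.108). Without those 4, only 2 ketogenic libraries were left, and the changes were -0.63 ± 0.23 for Lep and 0.50 ± 0.29 for Nrg4. The genotype label does not enter the diet comparison, so the lost calls do not bear on the labels. With the block Nampt was called instead (0.30, adjusted p = 0.0272). The call of Lep also ended without wild-type ketogenic replicate 1 (0.054), and that of Nrg4 without any 1 of the 3 knockout-label ketogenic libraries (0.0522 to 0.0758).

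The adipocyte markers of these libraries rose while Lep fell: 7 of 12 were higher on ketogenic diet and none lower, with Pck1 at 2.34 ± 0.33, Plin4 at 1.38 ± 0.18 and Plin1 at 0.93 ± 0.14. With the labels pooled, Adipoq and Cfd were not called (0.02 ± 0.19 and -0.26 ± 0.36, adjusted p = 0.956 and 0.617). Their means moved in opposite directions in each label, so the pooled values average over these. From control to ketogenic diet Cfd went from 92.3 to 42.7 CPM in wild type and from 32.3 to 61.5 CPM in the knockout label. Adipoq went from 27.0 to 18.7 and from 16.8 to 25.6 CPM. Of the 6 ketogenic libraries 4 have a doubtful label. Of 10 macrophage markers 9 were lower, where 14.3% of all genes were higher and 16.1% lower. Aplnr fell (-0.42 ± 0.14, adjusted p = 0.0298) while Apln was not called (0.16 ± 0.24, adjusted p = 0.657). Of 11 receptor genes tested 1 was higher, Cdh13, which binds adiponectin on vessel walls (0.30 ± 0.06), and 1 lower, Aplnr. Of 30 other secreted factors 4 were higher and 5 lower, against the same shares of all genes. The largest called changes of at least 2 CPM were in Angptl4, an inhibitor of lipoprotein lipase (1.02 ± 0.18), Cthrc1 (-0.51 ± 0.13) and Vegfa (0.51 ± 0.12).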

How the data were processed

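The deposited files hold raw read counts per gene from STAR for 48 libraries, which the authors had trimmed with Trim Galore 0.6.0 and aligned with STAR 2.7.8a to mm10, per the submitters' processing notes. Of 55471 genes, 55230 matched GENCODE vM21. Rows that name no gene held 19.3 to 33.0% of reads and were left out. The antisense-strand count was used for eWAT, whose kit marks strand per the labels' protocols, and the unstranded count for the macrophage-labelled libraries.

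TMM factors for CPM were computed once per tissue from its whole set of libraries, and TPM values use the union exon length. Each comparison was fitted over the groups it names (4 groups for the interaction, both labels for the macrophage-labelled diet comparison) with edgeR 4.0.16 in R 4.3.3 (quasi-likelihood, filterByExpr, robust), with Benjamini-Hochberg adjustment over all genes tested and a threshold of 0.05. SE is the log2 fold change divided by the root of F. DESeq2 1.42.0, limma 3.58.1 with voom, a GC offset (lowess span 0.3), no filter, a replicate block, the unstranded count and leaving out each library were alternatives. The fits were tested on simulated data. No library was a copy of another of its group, and pairs across groups were not compared.

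Members and lists were chosen with earlier results of these data known. Genes named from a list were mostly taken from its up to 3 called genes of at least 2 CPM with the largest change. Not all of these are named in every comparison, and list genes called in the interaction are not named. Others, such as Adipor1 in wild type and Gm11868, were named after their values were seen. Replicate numbers pair samples by the rule that every pair's deviations correlate above 0.1 in the ketogenic genotype comparisons (8 of 8 pairs in eWAT, 0.10 to 0.42; 3 of 3 in macrophage-labelled libraries); the labels do not say what a number stands for. A gene that the naming rule selects from the other secreted factors is not reported here.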

Additional observations from a re-analysis of the deposited data

Results flagged for a closer look

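The genotype label difference in Cfd differed between diets in eWAT: the interaction was 0.96 on the log2 scale (edgeR adjusted p = 0.0274), from -0.99 on control diet to -0.03 on ketogenic diet. Its dependence on GC content and on single libraries stands with the result.

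A single library stood apart from the others of its group for 2 genes. In the knockout-labelled macrophage-labelled libraries on control diet, replicate 3 held 16.84 CPM of Retn, where the group median was 9.62 CPM. The same library held 10.29 CPM of Rbp4, where the median was 5.75 CPM. Of 60 combinations of gene and group tested with Dixon's criterion 2 stood apart, and chance at 1 in 20 gives 3. This is also the library without which the Cfd call of its comparison held (adjusted p = 0.00564).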

How the results depend on the processing

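Over 69 refits with another setting, 26 of 142 called values of the 10 genes lost their call and 17 of 548 uncalled ones gained one. No called value changed sign. Of 41 uncalled values that changed sign 1 became called: Rbp4 between diets in wild-type eWAT, 0.30 with the GC offset and replicate block (adjusted p = 0.0212). Leaving out 1 library at a time (126 refits) ended 47 of 257 calls and added 6, with no change of sign in a called value.

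Between the labels in control-diet eWAT, 1 gene was called, 2 with the DESeq2 Wald test or all 4 groups in one fit, and 0 with the GC offset, with or without the replicate block. On ketogenic diet 0 were called, and 1 with the replicate block or the GC offset with the block. Between diets in the knockout label 5 became 3 without the low-count filter. The interaction had 1, 2 with the DESeq2 Wald test, and 0 without the filter, with the GC offset or with the GC offset and block. In macrophage-labelled libraries on control diet 1 became 5 with the DESeq2 Wald test, 2 with the GC offset and block, and 0 without the filter or with the GC offset. On ketogenic diet 0 became 1 without the filter. Between diets 2 became 4 with limma-voom, 1 with the block or the GC offset and block (Nampt, at 0.30 and 0.26, while Lep and Nrg4 both lost their call), and 0 without the 4 libraries of doubtful label, an alternative added after seeing the data. The causes were not tested. Leaving out 1 library gave 1 to 2, 0 to 0, 4 to 6, 3 to 5 and 0 to 1 called genes in eWAT (both genotype comparisons, both diet comparisons, the interaction) and 0 to 1, 0 to 0 and 1 to 3 in macrophage-labelled libraries.

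Counts over all genes moved by more than 1.5 times in these cases, given as higher and lower. Control-diet eWAT had 738 and 1939 genes, 415 and 795 with the GC offset and 300 and 548 with the block added. Ketogenic eWAT had 226 and 286, 522 and 519 with the DESeq2 Wald test, 151 and 180 without the filter, and 775 and 811 with the replicate block, 801 and 785 with the GC offset added. The interaction had 1193 and 232, 156 and 96 with the GC offset and 177 and 121 with the block added. Macrophage-labelled control libraries had 5 and 9, 31 and 84 with the DESeq2 Wald test, 9 and 24 with limma-voom, 1 and 8 with all 4 groups and 3 and 2 with the GC offset. Macrophage-labelled ketogenic libraries had 0 and 0, 0 and 14 with the DESeq2 Wald test, 26 and 77 without the filter, 0 and 7 with the block and 0 and 3 with the GC offset added. Their diet comparison had 2514 and 2834, and 463 and 393 without the doubtful libraries. The count in 1 direction alone moved by more than 1.5 times in further cases, among them these. Control-diet eWAT had 1407 higher genes with the DESeq2 Wald test and 341 without the filter. The interaction had 677 lower genes with the DESeq2 Wald test, 416 with DESeq2 size factors and 71 without the filter.

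In the other genotype and diet comparisons the replicate numbers are not shown to pair the samples: 4 of 7, 3 of 7 and 3 of 7 pairs passed in eWAT and 5 of 6 in macrophage-labelled control libraries. The block changed no other call in the paired comparisons. Depth limits Nrg4 most, at 0.740 to 2.20 CPM in macrophage-labelled libraries.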
